A study of Mus musculus with 4 samples.

Results

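The Egr and AP-1 immediate early factors compared here are the products of 10 genes: Egr1, Egr2, Egr3, Fos, Fosb, Fosl2, Jun, Junb, Jund and Atf3. They were chosen by name, with earlier results of these data known. Every probe set whose single gene symbol in the array's annotation is one of the 10 was taken. This gave 15 probe sets, out of 34945 with 1 symbol, for 10 of 18193 genes. A probe set is a group of short probes that reads one transcript or a few related ones, and its intensity is its brightness on a linear scale. The cells of both groups were mouse leukemic cells carrying the MLL-AF9 fusion gene, purified from the marrow of C57BL/6 recipients. Their genotype was Wild type in one group and Ezh2 KO in the other, with 2 arrays in each group. For the knockout samples another entry of the labels names repopulation with Ink4a-/-Arf-/- marrow cells. Whether those cells also lacked Ink4a and Arf is therefore not settled, and an effect of either loss cannot be told apart from that of Ezh2. Neither the age of the mice nor the marker used for purification is stated in the sources used here. Nothing in the labels ties the 2 samples of a group to different mice or leukemias. The p-values below therefore cover the spread of these arrays alone, and that spread may be technical.

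Immediate early genes are transcribed within minutes of a stimulus by factors that are already present in the cell, such as SRF, its ternary complex partners and CREB. Egr proteins bind GC-rich sites through zinc fingers. Fos and Jun proteins pair through leucine zippers into the AP-1 factor; Jun proteins can pair with each other, while Fos proteins need a partner such as a Jun protein. Atf3 is a related leucine zipper factor that responds to stress. In myeloid cells Egr1 and Egr2 are known for their part in differentiation toward monocytes and macrophages. Ezh2 is the catalytic subunit of a Polycomb complex that places a repressive methyl mark on histone H3.

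The arrays differed little on bright probe sets, while the median intensity of all non-control probe sets was lowest on wild-type replicate 2 (57.2). It was 64.7 on wild-type replicate 1 and 67.5 and 64.9 on the knockout arrays. Among the 6390 probe sets brighter than 1000 on average, 2 arrays typically differed on the log2 scale by 0.078 within the wild type and 0.077 within the knockout (medians of the absolute difference), against 0.14 to 0.16 between groups. For actin, the signal of the 3-prime control probes was 1.21 to 1.26 times that of the 5-prime ones over the 4 arrays. The single probe set of Ezh2 read 5216 and 5315 on the wild-type arrays and 4989 and 4991 on the knockout arrays (log2 change -0.08, adjusted p = 0.532), and where it lies relative to the deletion is not known here, so it does not check the genotype. All 7 markers of MLL-AF9 leukemic and myeloid progenitor cells were above the filter in these arrays, with the brighter probe set of Hoxa9 at 13666 and 14818 in wild-type cells and 15793 and 16200 in Ezh2 KO cells. Of the T cell markers 3 of 4 lay below the filter (summed intensity 52.8 and 64.4 on the wild-type arrays against 111.0 and 41.4), as did 2 of 4 erythroid markers (211.3 and 157.4 against 183.1 and 184.5).

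Promoter sequence is shown for the members because promoters of immediate early genes are read by a small set of known factors. RefSeq windows of 250 bases before to 50 bases after each start site, on GRCm38.p6, were found for 8 of the 10 members; Egr1 and Egr3 were not among them. The window of Jund held none of the sites searched for and is not printed. The stretches below run from base -120 to base 50 around the start. They lie at chr10:67537749-67537918, plus strand for Egr2, at chr12:85473770-85473939, plus strand for Fos, at chr7:19309996-19310165, minus strand for Fosb and at chr5:32136352-32136521, plus strand for Fosl2. Those of Jun, Junb and Atf3 lie at chr4:95052173-95052342, minus strand, at chr8:84978699-84978868, minus strand and at chr1:191183284-191183453, minus strand. Capitals mark the short CRE site TGACG on either strand, the CRE-like site TGACNTCA, the Egr site GCGNGGGCG and the CArG box, the sequence bound by SRF.
Egr2: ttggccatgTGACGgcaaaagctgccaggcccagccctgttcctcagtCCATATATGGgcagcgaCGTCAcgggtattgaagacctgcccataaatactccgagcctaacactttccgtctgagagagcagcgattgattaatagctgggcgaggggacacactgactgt
Fos: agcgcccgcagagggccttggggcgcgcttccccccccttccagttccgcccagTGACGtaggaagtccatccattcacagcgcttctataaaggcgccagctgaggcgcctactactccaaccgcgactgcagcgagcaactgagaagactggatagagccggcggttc
Fosb: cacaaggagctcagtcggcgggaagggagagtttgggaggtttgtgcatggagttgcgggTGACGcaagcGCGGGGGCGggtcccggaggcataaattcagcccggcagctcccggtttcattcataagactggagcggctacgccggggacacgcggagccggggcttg
Fosl2: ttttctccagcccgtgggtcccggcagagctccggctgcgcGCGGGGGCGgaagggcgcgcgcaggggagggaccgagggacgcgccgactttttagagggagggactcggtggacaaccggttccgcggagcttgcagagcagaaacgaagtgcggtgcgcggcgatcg
Jun: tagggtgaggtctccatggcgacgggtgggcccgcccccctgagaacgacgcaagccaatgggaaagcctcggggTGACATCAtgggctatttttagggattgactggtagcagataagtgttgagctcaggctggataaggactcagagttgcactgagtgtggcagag
Junb: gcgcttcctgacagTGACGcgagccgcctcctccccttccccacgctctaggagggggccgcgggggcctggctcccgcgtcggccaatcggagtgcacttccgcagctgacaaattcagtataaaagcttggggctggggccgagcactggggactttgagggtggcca
Atf3: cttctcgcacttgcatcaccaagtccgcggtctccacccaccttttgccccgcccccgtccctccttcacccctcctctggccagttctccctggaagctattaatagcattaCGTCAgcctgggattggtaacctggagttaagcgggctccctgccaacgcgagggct

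The short CRE site occurred in 5 of the 8 genes with a window (Egr2, Fos, Fosb, Junb and Atf3), against 23.02% of 26994 genes, where a gene with several windows was counted once. Fos held it at bases -129 to -125 and again at -66 to -62, Fosb at -60 to -56 and Atf3, on the opposite strand, at -7 to -3. The CRE-like site, searched after the promoter of Jun had been seen, was found in Jun alone (10.03% of all genes), and it contains the short CRE site wherever its middle base is G. The Egr site was present in Fosb and Fosl2 (6.28% of all genes). The CArG box was found in Egr2 alone (1.81% of all genes), at bases -72 to -63 of the window shown. Egr2 has 5 windows and so more room for a match than the others. The sites marked in the window shown were not in all 5. Another of them held a different CArG box, CCTTTTTTGG, and no short CRE site. A site more than 250 bases before the start, or any site of Egr1 or Egr3, could not be found by this search. The full CRE TGACGTCA (2.03%) and the AP-1 site TGANTCA (8.98%) were in 0 of the 8. The TATA box TATAAA was found in Fos and Junb (15.67% of all genes). A match describes the letters only, and the part of these sites in the changes given below was not tested.

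Between the groups, 7 of the 14 member probe sets tested rose in the Ezh2 KO cells and 0 fell, in limma's test adjusted over all 25580 probe sets at a threshold of 0.05. The 7 belonged to 6 genes: Egr1, Fosb, Jun (2 probe sets), Jund, Fosl2 and Fos. Of all probe sets tested, 4.08% were called higher and 3.91% lower, 7.98% in all. At an unadjusted p under 0.05, 8 of the 14 were higher and 0 lower, against 11.4% and 10.5% of all probe sets tested. The log2 change was above 0 for each of the 14, which include 2 probe sets each of Egr2, Fosl2, Jun and Jund. That of Junb turned negative with quantile normalization and with median centring. With 1 array left out those of Junb and Atf3 reached -0.07 and -0.50 at the lowest. The median of the 14 was 0.69, against 0.025 over all probe sets tested, of which 53.4% were above 0. Both knockout arrays lay above both wild-type arrays in 11 of the 14, against 27.3% of all probe sets tested. Because the members were chosen with earlier results of these data known, an excess over these shares is not independent evidence. The remaining probe set of the 15, the second one of Egr3, was below the filter, which was set at a mean intensity of 21.93. All 14 that passed had means above it in both groups, so none passed through the knockout alone.

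The shares called over all probe sets depended on how arrays were scaled and on which arrays were kept. Of all probe sets tested, 1043 were called higher and 999 lower; with each array centred on its median the split was 505 and 1088, and 6 members were higher, Fos having lost its call. Without wild-type replicate 1 the table gave 1058 calls in place of 2042, with 7 members higher as before. The calls also need the error model in which limma's prior variance depends on brightness. One common prior for all probe sets left 0 calls in limma's test, members included, Egr1 having an adjusted p of 0.0935, while 4206 probe sets and 9 members, all 9 higher, had an unadjusted p under 0.05.

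**Figure D1:**
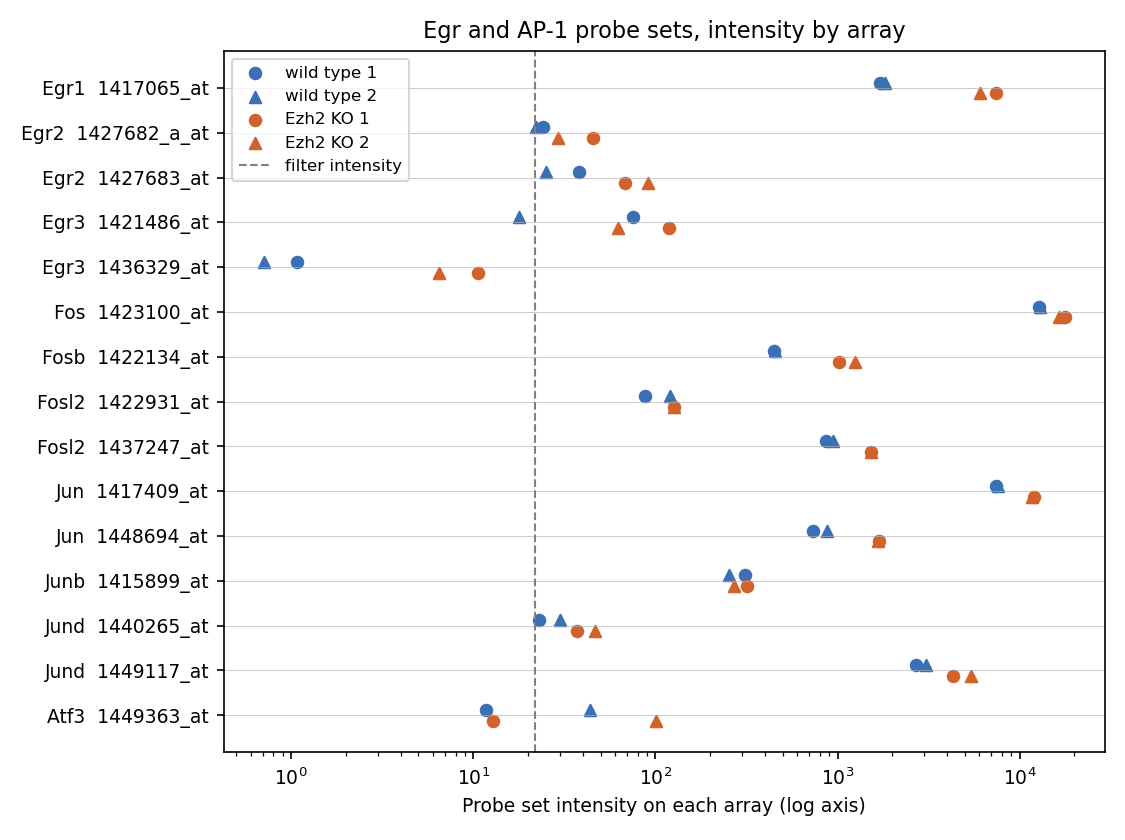
Intensity of the 15 Egr and AP-1 probe sets on each of the 4 arrays (log axis; blue, wild type; orange, Ezh2 KO; circles, replicate 1; triangles, replicate 2; dashed line, the filter intensity of 21.93). The knockout values of Egr1, 7401 and 6089.6, lie clear of the wild-type values of 1717 and 1827, while those of Junb and Atf3 overlap between groups.

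Among the Egr factors, Egr1 changed most. Egr1, the founding member of the family and a direct target of SRF, read 1717 and 1827 on the wild-type arrays and 7401 and 6089.6 on the knockout arrays. Both knockout arrays were high, the lower of them being 3.33 times the higher wild-type array. The means were 1772 ± 77.7 and 6745 ± 927 (SD, n = 2 arrays in each group, as throughout), a log2 change of 1.91 (SE 0.09, adjusted p = 6.13e-06), or 3.76-fold. Changes and folds refer here and below to intensity plus 16, a scale on which dim probe sets appear to differ less than they do. It was the 35th largest rise among the 25580 probe sets.

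Egr2, also called Krox20, acts in myeloid and nerve development and was dim on both of its probe sets. Probe set 1427683_at read 38.3 and 25.1 in wild-type cells and 68.0 and 90.7 in Ezh2 KO cells. Its groups did not overlap, yet the log2 change of 1.00 (SE 0.35) did not pass (adjusted p = 0.122), with a 95% interval of 0.22 to 1.79. The other, 1427682_a_at, read 24.2 and 22.1 against 45.7 and 29.3, close to the filter, with a log2 change of 0.43 (SE 0.43, adjusted p = 0.634). With 64 added in place of 16 the change of 1427683_at was 0.58, and with 1 added it was 1.31, so its size rests on how dim values were treated.

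Egr3, a family member known from lymphocytes and muscle spindles, could not be separated between the groups. On 1421486_at the wild-type arrays read 75.6 and 17.9 and the knockout arrays 118.5 and 62.4, so the groups overlapped. The log2 change was 0.88 (SE 0.48, adjusted p = 0.338), and it fell to 0.16 without wild-type replicate 2 and reached 1.60 without wild-type replicate 1. The second probe set, 1436329_at, read 1.08 and 0.707 against 10.6 and 6.45. All 4 values were under the filter intensity, where a signal cannot be told from background, and no fold is given.

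Of the 3 Fos family genes, all had a probe set that rose. Fosb, whose product needs a Jun partner to bind DNA, read 447 and 456 in wild-type cells and 1018 and 1242 in Ezh2 KO cells. The wild-type arrays were nearly equal and both knockout arrays were at least 2.23 times as bright as either. Its log2 change was 1.29 (SE 0.12, adjusted p = 0.000214), the 217th largest rise of the table.

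Fos, the gene after which the family is named, was bright in both groups, with 12757 and 12876 on the wild-type arrays and 17675 and 16370 on the knockout arrays. The groups did not overlap, but the distance was small, the lower knockout array being 1.27 times the higher wild-type array. The log2 change of 0.41 (SE 0.06, adjusted p = 0.00409) was the smallest of the 7 that passed. It was 0.31 with median centring, where it did not pass (adjusted p = 0.112).

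Fosl2, or Fra-2, a Fos relative whose transcript tends to appear later and last longer than that of Fos, had 2 probe sets. On 1437247_at it read 868 and 948 in wild-type cells and 1528 and 1523 in Ezh2 KO cells, and the knockout arrays were nearly equal. The log2 change was 0.74 (SE 0.09, adjusted p = 0.00101). The dimmer 1422931_at read 88.0 and 119.8 against 127.3 and 126.2, with a log2 change of 0.26 (SE 0.24, adjusted p = 0.588). Its groups did not overlap, but the higher wild-type array lay close to the knockout arrays. The interval of the dim probe set, -0.27 to 0.80, contains the value of the bright one.

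Jun, the main partner of the Fos proteins and a gene that AP-1 itself drives, rose on both of its probe sets. The brighter, 1417409_at, read 7413 and 7647 in wild-type cells and 11933 and 11714 in Ezh2 KO cells, a log2 change of 0.65 (SE 0.06, adjusted p = 0.000229). The dimmer, 1448694_at, read 736 and 871 against 1687 and 1674, a log2 change of 1.05 (SE 0.10, adjusted p = 0.000261). Replicates of 1417409_at were close within each group. The wild-type arrays of 1448694_at were further apart, with a log2 difference of -0.24 (replicate 1 minus replicate 2). Neither probe set showed any overlap between groups. The 95% intervals, 0.52 to 0.78 and 0.83 to 1.28, did not overlap, so the size of the rise in Jun depends on which probe set is read. Whether the probe sets read different parts or forms of the transcript was not tested.

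Jund, the Jun protein that is most often described as constantly present, rose on its bright probe set 1449117_at. That probe set read 2693 and 3065 in wild-type cells and 4332 and 5389.8 in Ezh2 KO cells, with a log2 change of 0.75 (SE 0.11, adjusted p = 0.00284). Its knockout arrays differed from each other by 0.31 on the log2 scale, more than those of Jun, but the groups did not overlap. The dim probe set 1440265_at read 23.0 and 29.9 against 37.2 and 46.3, near the filter, with a log2 change of 0.44 (SE 0.40, adjusted p = 0.594).

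Junb, often described as an opponent of Jun in growth control and a restraint on myeloid proliferation, overlapped between the groups. Its single probe set read 311 and 254 in wild-type cells and 319 and 272 in Ezh2 KO cells. The log2 change was 0.06 (SE 0.16, adjusted p = 0.871), with a 95% interval of -0.30 to 0.43, and its sign turned with quantile normalization and with median centring. The difference between Junb and Jun was not itself tested.

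Atf3 could not be measured well. Its probe set read 11.7 and 43.9 in wild-type cells and 12.8 and 101.1 in Ezh2 KO cells, so in each group replicate 1 was below the filter intensity and replicate 2 above it. The log2 change was 0.51 (SE 0.67, adjusted p = 0.729). Leaving out knockout replicate 2 made it -0.50 and leaving out knockout replicate 1 made it 1.52, and its interval of -0.98 to 2.01 covers a fall as well as a rise.

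**Figure D2:**
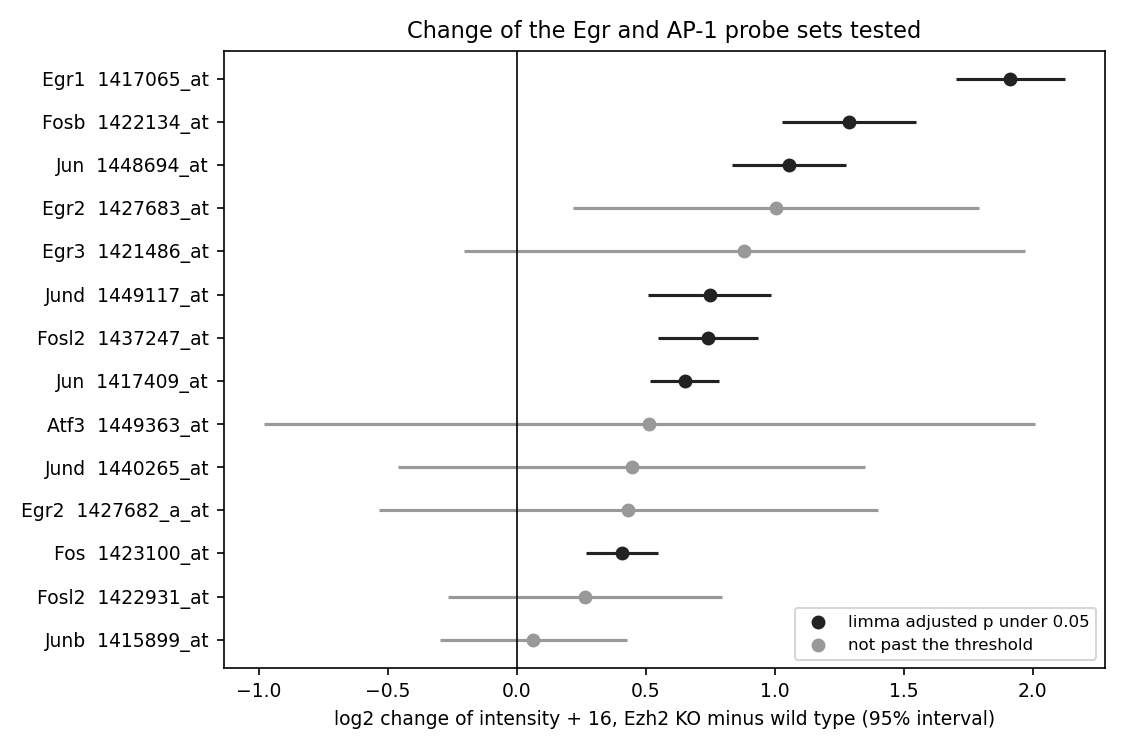
Log2 change of intensity plus 16, Ezh2 KO minus wild type, for the 14 probe sets tested (points, the fitted change; lines, its 95% interval; black, limma adjusted p under 0.05; grey, not past the threshold; 2 arrays a group). The 7 black points run from 0.41 for Fos to 1.91 for Egr1, and the widest interval, that of Atf3, runs from -0.98 to 2.01.

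The calls separated by brightness. The 7 member probe sets that passed had mean intensities of 791 (Fosb) or more over the 4 arrays, and the 7 that did not had means of 289 (Junb) or less. Standard errors ran from 0.06 for the bright probe set of Jun to 0.67 for Atf3. Egr2 on 1427683_at and Egr3 on 1421486_at had log2 changes of 1.00 and 0.88, above those of Jund, Fosl2 and Fos, which passed. For these dim members a change of that size was not detectable with 2 arrays a group, which does not show that there was none. Junb was the exception, with an interval narrow enough (-0.30 to 0.43) that its upper end lay below the changes of both Jun probe sets.

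The knockout arrays did not order the members alike. Egr1 and Fos were brighter on knockout replicate 1, by 0.28 and 0.11 on the log2 scale, whereas Fosb and the bright probe set of Jund were dimmer there, with differences of -0.28 and -0.31 (replicate 1 minus replicate 2). Jun and Fosl2 were nearly level between them, within 0.03 on the probe sets that passed. The wild-type arrays were within 0.03 of each other for Fos and Fosb and 0.24 apart for the dimmer probe set of Jun. In each of the 7 that passed, these differences were smaller than the change between groups.

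**Figure D3:**
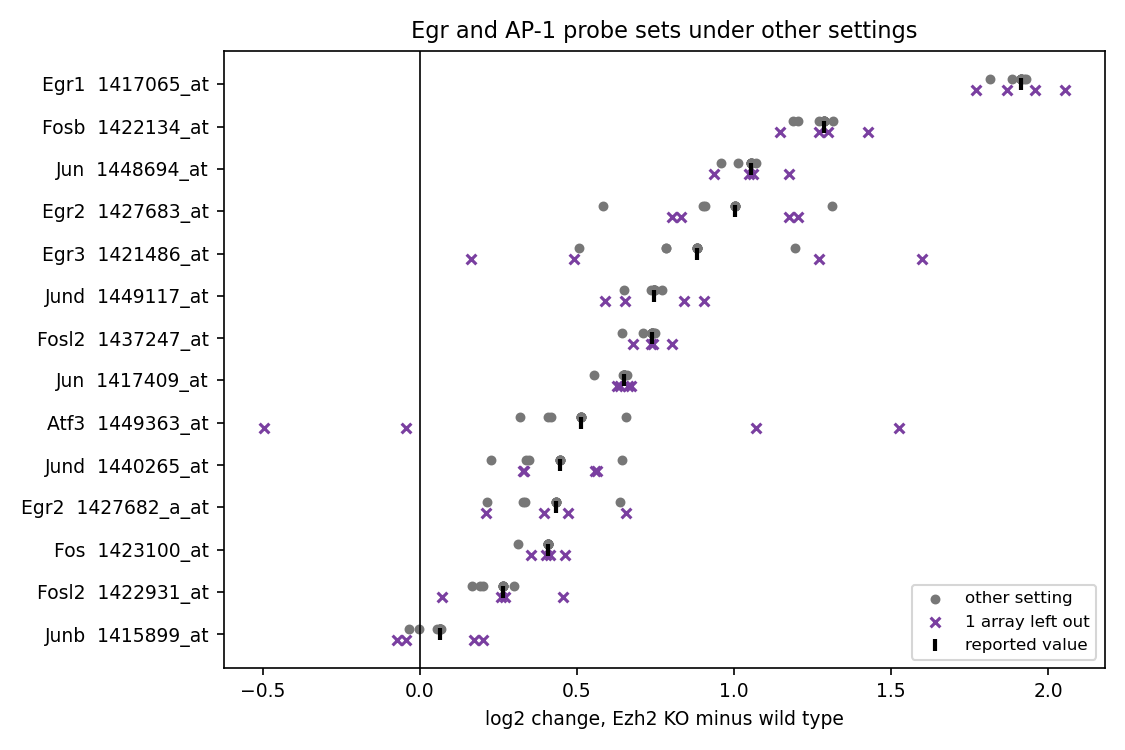
Log2 change of each of the 14 probe sets as reported (black bars) and under other settings of normalization, pseudocount, filter, probe set choice, prior variance and replicate block (grey points), or with 1 array left out (crosses). Values of Egr1 stay between 1.77 and 2.05, while Atf3 runs from -0.50 to 1.52 and Junb from -0.07 to 0.20.

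Genes around the members were counted by their probe set of highest mean, from lists of regulators, partners and targets. Of the 13928 genes tested that way 4.67% were called higher and 4.93% lower, with a median log2 change of 0.0057, and 24.5% had an unadjusted p under 0.05 in either direction. Shares near these say nothing particular about a list. The lists too were chosen with earlier results of these data known, so a share above these is not independent evidence. Among 12 further AP-1 and related leucine zipper genes tested, 1 rose and 0 fell (median 0.08): Bach1, a repressor that pairs with small Maf proteins, read 2601 and 2753 on the wild-type arrays and 3908 and 3966 on the knockout arrays (log2 change 0.55, adjusted p = 0.00132). Fosl1, Batf2, Batf and Jdp2 were tested and did not pass, with log2 changes of -0.37, -1.21, 0.08 and 0.01. Of the Egr relatives and their Nab corepressors, Egr4 and Nab2 were below the filter. Nab1, which binds Egr proteins and curbs them, had a log2 change of 0.11 (adjusted p = 0.360) and Wt1, a zinc finger factor with a related DNA site, one of -0.996 (adjusted p = 0.310) at intensities of 33.0 and 56.1 against 27.3 and 4.52.

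Transcripts of factors that act on immediate early promoters changed in part. Of 7 SRF and ternary complex genes 2 rose and 0 fell (median 0.18), and 1 rose with median centring, without a filter or without wild-type replicate 1. Elk3, a ternary complex factor, read 645 and 636 in wild-type cells and 986 and 919 in Ezh2 KO cells (log2 change 0.56, adjusted p = 0.00715). Mrtfa, an actin-regulated coactivator of SRF, read 815 and 931 against 1168 and 1164 (0.41, adjusted p = 0.0293). Its call was lost without wild-type replicate 1 (0.32, adjusted p = 0.15), with median centring (0.32, adjusted p = 0.190) and without a filter (adjusted p = 0.0583). Srf itself had a log2 change of 0.05 (adjusted p = 0.768). Of 7 CREB and coactivator genes 0 passed in limma's test and 2 had an unadjusted p under 0.05 (median 0.08); Creb1 had 0.23 (adjusted p = 0.0691) and Crtc3 0.23 (adjusted p = 0.226). Creb1 passed with quantile normalization (0.25, adjusted p = 0.0496) and with 1 probe set per gene (adjusted p = 0.0467), but not with median centring (0.14, adjusted p = 0.527).

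The kinases upstream were read here as transcripts. Of 8 Ras, ERK and RSK genes tested 0 passed in limma's test and 1 had an unadjusted p under 0.05 (median 0.06); the largest differences were those of Map2k2, which encodes the ERK kinase MEK2, at -0.24 (adjusted p = 0.191) and of the scaffold gene Ksr1 at 0.18 (adjusted p = 0.520). Among 13 genes of the JNK and p38 kinases 1 rose and 0 fell (median 0.13). It was Mapk13, the delta form of p38, at 262 and 284 in wild-type cells and 527 and 586 in Ezh2 KO cells (log2 change 0.99, adjusted p = 0.00181). Kinase activity is not read by these arrays.

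Of 7 genes that act on the decay of short-lived transcripts, 1 rose and 0 fell (median 0.19), and 2 rose with quantile normalization. The 1 was Zfp36, or tristetraprolin, which binds AU-rich elements such as that of the Fos transcript and is itself an immediate early gene. It read 1868 and 1943 in wild-type cells and 2822 and 3077 in Ezh2 KO cells (log2 change 0.63, adjusted p = 0.00123). Its relatives Zfp36l2 and Zfp36l1 had 0.23 (adjusted p = 0.0604) and 1.02 (adjusted p = 0.0997), the latter at dim intensities of 27.1 and 42.5 in wild-type cells and 93.2 and 79.4 in Ezh2 KO cells.

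Of 25 immediate early genes tested outside the Egr and AP-1 families, 12 rose and 1, Myc, fell, with a median log2 change of 0.48. Myc, a growth-promoting factor, read 3265 and 3299.7 against 2309 and 2214 (log2 change -0.53, adjusted p = 0.0017). With median centring 7 rose and 1 fell (median 0.39), and 10 to 12 rose with 1 array left out. The orphan receptor gene Nr4a1 read 142 and 187 in wild-type cells and 364 and 403 in Ezh2 KO cells (log2 change 1.16, adjusted p = 0.00387). The phosphatase genes Dusp1 and Dusp2, which turn off MAP kinases, had changes of 1.08 and 1.01 (adjusted p = 1.93e-05 and 9.26e-05), and Klf2, a zinc finger factor, had 0.85 (adjusted p = 0.000507). Heat shock genes, which respond to stress of another kind, had 1 of 12 higher and 3 lower (median -0.04). Hspa1a, the inducible chaperone, fell by 0.49 on the log2 scale (adjusted p = 0.00317), though its copy Hspa1b is nearly identical and had 0.07. Hspe1 fell by 0.41 (adjusted p = 0.00495) and Hspd1 by 0.24 (0.0372), and Dnajb4 rose by 0.41 (0.0195). The call of Hspd1 was lost with any 1 array left out (adjusted p 0.0635 to 0.138) and that of Dnajb4 without wild-type replicate 2 (0.36) or knockout replicate 1 (0.37). Both were lost with median centring, as was that of Hspd1 without a filter.

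**Figure D4:**
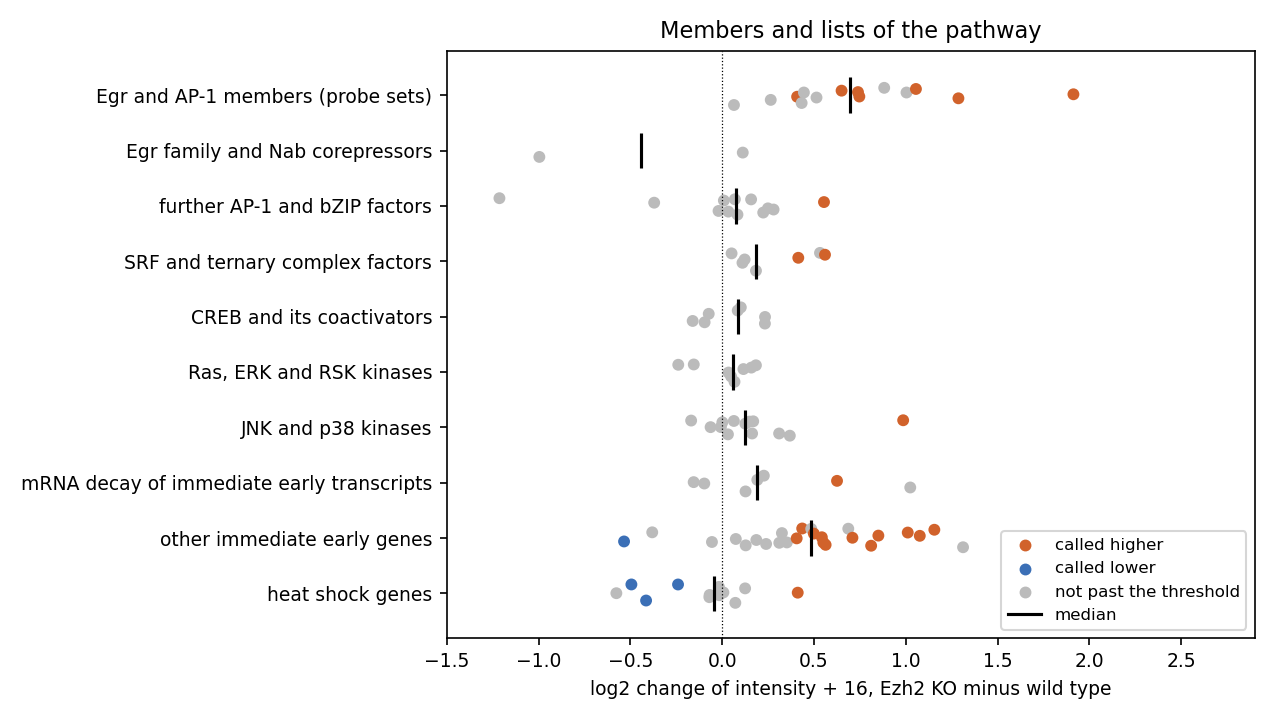
Log2 change of intensity plus 16, Ezh2 KO minus wild type, for the member probe sets and for the genes tested of each list (orange, called higher; blue, called lower; grey, not past the threshold; black bars, medians; points are jittered vertically). The medians are 0.69 for the members and 0.48 for the other immediate early genes, against -0.04 for heat shock genes and 0.06 for the Ras, ERK and RSK genes.

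Markers of neutrophils moved with the same groups. Of 7 tested 3 rose and 0 fell (S100a9, Ngp and Camp), with a median log2 change of 0.50, but 0 of the 7 passed with median centring (median 0.40; 3 to 4 passed with 1 array left out). At an unadjusted p under 0.05 in limma's test 6 of the 7 differed, all upward (5 differed with median centring), against 24.5% of all genes tested. The summed intensity of the 7 was 121273 and 123741 in wild-type cells and 168657 and 151839 in Ezh2 KO cells. Mmp8, a late neutrophil granule gene, read 32.5 and 31.7 against 43.1 and 19.6. Of 5 monocyte and macrophage markers tested 1 rose (Csf1r) and 2 fell (Cd68 and Ccr2). With median centring 0 rose and 2 fell. The sum over the 6 on the array was 7975 and 7792 against 7082 and 7988; C1qa was below the filter on all 4 arrays. Of 5 mast cell and basophil markers tested 1 rose, Cpa3 (log2 change 4.14), and 1 fell, Hdc (-1.36; summed intensity of the 6 on the array 3347 and 3521 against 3358 and 3108). Of 3 B cell markers tested 0 passed in limma's test, also at an unadjusted p under 0.05 (sum over the 4 on the array 824.2 and 806.0 against 819.5 and 957.5). In bulk RNA, more cells of a type and more RNA per cell cannot be told apart, and the part of these markers in the changes of the Egr and AP-1 genes was not tested.

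The genes whose profile over the 4 arrays lay closest to that of Egr1 were Satb1, a chromatin organiser of lymphocytes, Ssbp2, Plekha8, Fmnl2 and Cxadr. Closeness was the Euclidean distance between log2 values centred on their own mean, among 13928 genes, and came to 0.228, 0.247, 0.253, 0.264 and 0.277. Satb1 read 71.2 and 81.0 in the wild type against 369.7 and 360.8, a log2 change of 2.05, and all 5 were called higher. With 4 arrays in 2 groups this measure picks genes with a rise of like size, and no member was among the 5.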

How the data were processed

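RNA of 4 samples, made into biotinylated cRNA from the equivalent of 10000 cells per the labels' protocols, was hybridised to 1-colour Affymetrix arrays. The deposited values are probe set intensities; the submitters' processing notes name Affymetrix Expression Console, and its version and the summary algorithm are not given in the sources used here. Each deposited array had a mean of 500 after trimming 2% at each end, which removes differences in total mRNA per cell. No detection calls were used here. Precision is limited by having 4 arrays.

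Of 45101 probe sets, 64 controls, 932 with several symbols and 9160 without one in the annotation were left out. Probe sets with a mean above the 30th percentile of non-control probe sets (21.93) were tested as log2(intensity + 16) with lmFit and eBayes of limma 3.58.1 under R 4.3.3; the prior variance followed intensity (trend), with Benjamini-Hochberg adjustment over all tested. Probe sets rather than genes were tested because members are reported by probe set. All 10 members matched RefSeq genes of GRCm38.p6 by identifier. The script was tested on simulated data. Alternatives were quantile normalization, median centring, pseudocounts of 1 and 64, no filter or the 50th percentile, 1 probe set per gene, all non-control probe sets, a single or a robust prior variance, a block for replicate number, a threshold of 0.10, a minimum of 2-fold and leaving out each array; for list genes these were added after seeing the data. The text names every member, up to 4 called genes of each list by size of change (or 2 where none was called) and the 5 genes most like Egr1. Markers and further list genes given with values, such as Srf, Fosl1 and Zfp36l1, were named after their values were seen. The members and lists were chosen with earlier results of these data known. Figures were drawn with matplotlib 3.10.9 in Python 3.11.15.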

Additional observations from a re-analysis of the deposited data

How the results depend on the processing

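With 2 arrays a group, calls rest on the prior variance that limma shares across probe sets. With a single prior variance limma called 0 probe sets (4206 at an unadjusted p under 0.05) and 0 members (9 at that level, all higher). Requiring a 2-fold change left 391 probe sets and 3 members. The whole table gave 1229 calls without a filter, 3252 at an adjusted p of 0.10, and 1058 to 2059 with 1 array left out, the lowest without wild-type replicate 1. Among settings that kept all 4 arrays, 7 member probe sets were higher outside the single prior, the 2-fold minimum, median centring and 1 probe set per gene. The last 2 settings gave 6 each, and with 1 probe set per gene these were the same 6 genes. Fits with 1 array left out set 1 array against 2, so their p-values draw on the spread of 1 group. The only member call lost to a change of scaling was that of Fos. Junb reversed with quantile normalization (-0.0015) and median centring (-0.033) and ran from -0.074 to 0.20 with 1 array left out. Atf3 ran from -0.50 to 1.52 with 1 array left out. The cause was not tested. As a replicate block, the numbers in the titles gave 3469 calls and 7 members higher, and Creb1 passed in limma's test (adjusted p = 0.0189). Deviations of same-numbered arrays correlated at 0.0386 over probe sets. A value near 0 over all probe sets tested, most of which were not called, does not settle whether the numbers pair the arrays. Dim members, at intensities near 21.93, are limited by background.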
